A study of Mus musculus with 24 samples.

Results

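Notch signaling passes between neighboring cells: a ligand of the Jagged or Delta family on one cell binds a Notch receptor on the next, the receptor is cut by ADAM proteases and gamma-secretase, and the freed intracellular domain enters the nucleus. There it joins the DNA-binding protein Rbpj and turns on Hes and Hey genes, which encode transcriptional repressors. In epidermis the pathway is known for promoting the switch of basal keratinocytes to the differentiating suprabasal layers, and in the dermis it acts in blood vessels and their mural cells.

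Described here are 10 Notch pathway genes, chosen by name from the 54087 gene symbols of a skin RNA-Seq count table: the receptors Notch1, Notch2 and Notch3, the ligands Jag1, Jag2 and Dll1, the nuclear effector Rbpj, and the targets Hes1, Hes5 and Hey1. All 10 passed the filter on low counts that left 17094 genes for testing. Skin came from mouse embryos at E18.5 of genotypes labelled WT, HET and KO, with 8 libraries each. HET and KO embryos carry a CRISPR/Cas9 deletion of the tandem Dsg1 genes on 1 or both chromosomes. Dsg1 encodes desmoglein 1, a cadherin of the desmosomes that hold keratinocytes together. Per the study's methods the deletion was made in C57BL/6J zygotes, the line descends from a single founder, dorsal skin was used, and both sexes were used.

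Libraries that share a genotype and the number in their titles were summed into columns, 5 per genotype, called replicates 1 to 5. The labels do not say what the number stands for, so p-values measure the spread between these columns, which may be partly technical. WT replicates 1 and 5, HET replicates 4 and 5 and KO replicates 4 and 5 held 1 library each, all of 1 title format. The other columns held 2. Columns held 19.46 to 33.68 M counts in WT, 15.28 to 29.81 M in HET and 20.73 to 33.6 M in KO (M, mega). Chi-square per degree of freedom, a measure of how far paired libraries differ, was 1.59 to 1.86 in 8 of the 9 numbers with 2 libraries. The pair summed as WT replicate 2 gave 15.6, inside the range of 9.18 to 119 for libraries with different numbers. Its libraries differed in Y-linked genes (338 against 0.157 CPM) and, the other way, in Xist, an RNA of the inactive X chromosome (0.275 against 574 CPM). They are thus of different sex, so WT replicate 2 pools different embryos, yet it counts as 1 of the 5 WT columns. In that check of single libraries the total was not scaled. Elsewhere CPM are counts divided by the TMM-scaled library total in M. The summed Dsg1 genes stood at 806 ± 112 CPM in WT, 422 ± 51.5 in HET and 0.548 ± 0.343 in KO (SD, n = 5 each), so the labels hold on the targeted genes (KO vs WT, two-sided exact permutation p = 0.00794). Keratinocyte markers were abundant in every column: the 6 suprabasal genes (Krt1, Krt10 and others) summed to 50300 to 92360 CPM and the 7 basal genes (Krt5, Krt14 and others) to 5815 to 8036 CPM, beside 7 fibroblast genes at 14700 to 36660 CPM. Because whole skin was sequenced, fewer cells of a type and less RNA per cell cannot be told apart.

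The Hes5 promoter is shown because Hes5 was the only one of 8 members with a promoter in the RefSeq table whose 250 bases before the transcription start held the motif GTGGGAA, the core sequence that Rbpj binds, on either strand. The targets Hes1 and Hey1 had no promoter in that source and were not scanned. The stretch is chr4:154960673-154960922 on the + strand of GRCm38.p6, printed 5′ to 3′ up to the base before the start, with the motif in capitals. It holds 2 matches, beginning 226 bases (reverse strand, read as TTCCCAC) and 83 bases (forward strand) before the start.
Hes5: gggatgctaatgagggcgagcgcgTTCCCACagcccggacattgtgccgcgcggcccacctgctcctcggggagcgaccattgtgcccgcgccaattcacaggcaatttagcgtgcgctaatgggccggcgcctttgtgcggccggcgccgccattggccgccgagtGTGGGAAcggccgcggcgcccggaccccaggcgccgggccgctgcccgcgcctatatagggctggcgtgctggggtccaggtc
Of 32851 promoters of this length, 5.42% held GTGGGAA and 21.6% held the shorter TGGGAA, which it contains. Among the members scanned, which leave out Hes1 and Hey1, TGGGAA was found for Hes5 and Rbpj. A match describes the letters in this window and says nothing of binding in these samples.

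Levels in WT skin were compared per kilobase of exon, using the union of the exons of each gene, which makes genes with many alternative exons look low. Hes1 was highest at 29.5 ± 7.69 CPM per kb (SD, n = 5), and its columns overlapped those of Notch3 but not those of any other member. Jag2 (16.4 ± 1.35) and Notch3 (16.3 ± 5.44) came next and overlapped. Jag1 (9.39 ± 1.57), Notch2 (9.31 ± 2.21) and Notch1 (8.32 ± 2.20) formed a run in which neighbors overlapped, as did Notch3 and Jag1. Hey1 (3.87 ± 0.193) and Dll1 (3.81 ± 0.478) lay below all of these and overlapped each other, Rbpj was at 2.25 ± 0.197, and Hes5 was lowest at 1.01 ± 0.226. Within the ligands the order Jag2, Jag1, Dll1 held in 5 of 5 WT columns, and within the targets so did Hes1, Hey1, Hes5. Of the targets, Hes1 and Hes5 thus lay at opposite ends of the order.

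The 3 genotypes were compared to ask whether loss of Dsg1 changes these genes in skin near birth. No member passed the test in any comparison. Genes were called at an adjusted p of at most 0.1 and an absolute log2 fold change of at least 1. The test was edgeR quasi-likelihood, with Benjamini-Hochberg adjustment over all genes. The limits are those of the study, but its fitting tool is not given in the sources used here. For KO vs WT in this data set the study reports more changed genes than were called here, so the counts below hold for this fit. By this rule 0 of 10 members were called in KO vs WT, where 0.322% of all genes were, 0 of 10 in HET vs WT (0.0% of all genes), and 0 of 10 in KO vs HET (0.181%). By the adjusted p alone, 0 of 10 passed in KO vs WT (1.15% of all genes), HET vs WT (0.0%) and KO vs HET (0.333%). At an unadjusted p below 0.05 the members also counted 0 of 10 in each, beside 19.3%, 1.58% and 16.0% of all genes, and in no comparison did the columns of the 2 genotypes separate fully for a member (3.37%, 0.374% and 2.25% of all genes). DESeq2 and limma-voom likewise passed 0 of 10 members in each comparison at an adjusted p of 0.1, and so did the edgeR fits without WT replicate 2 or with its libraries kept apart. Of all genes, 1451 of 16993 passed in KO vs WT with DESeq2 and 494 of 17094 with limma-voom. Without WT replicate 2 it was 29 of 17025, and with its libraries kept apart 1195 of 16648. The members' median log2 fold change was 0.03 in KO vs WT with 7 of 10 above 0 (all genes −0.01, 48.6% above 0), −0.06 in HET vs WT with 2 of 10 above 0 (all genes 0.002, 50.9%), and 0.12 in KO vs HET with 7 of 10 above 0 (all genes −0.004, 49.3%). KO vs WT and HET vs WT share the WT columns, and KO vs WT and KO vs HET share the KO columns.

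**Figure D1:**
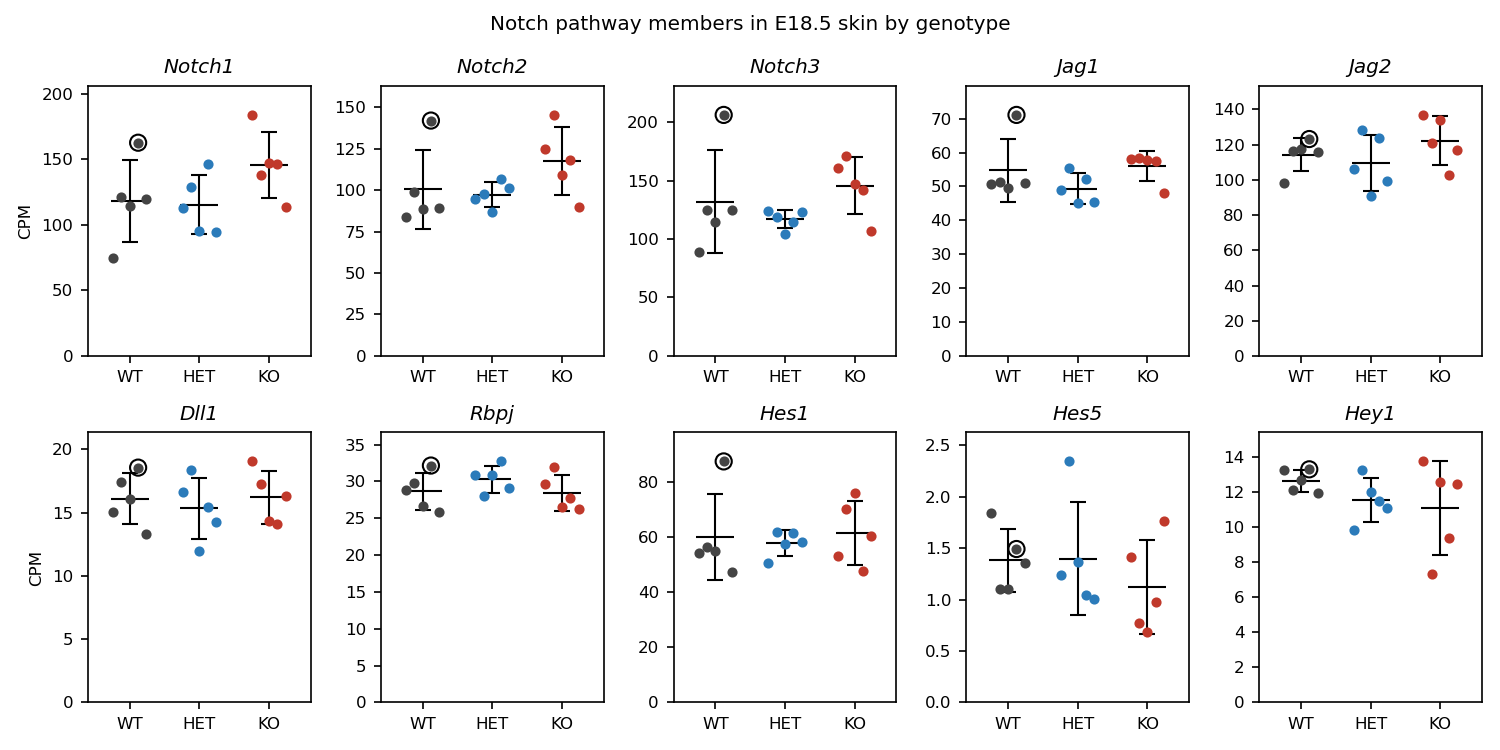
CPM of each member in the 15 columns (points, replicates 1 to 5 from left to right within a genotype), with the mean and SD of 5 columns per genotype as bars; WT replicate 4 is ringed. Genotypes overlap in every panel, and the ringed column is the highest WT column for 9 of the 10 genes.

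Among the receptors, Notch1 is the main Notch of the epidermis and is made in basal and suprabasal keratinocytes. It measured 74.6, 121, 114, 163 and 119 CPM in WT replicates 1 to 5. The HET columns gave 112.5, 129, 94.9, 146 and 94.2 CPM. The KO columns gave 184, 138, 147, 146 and 113.5 CPM. KO replicates 1 to 4 exceeded every WT column but replicate 4, and KO replicate 1 exceeded all WT and HET columns. The mean was 118 ± 31.25 CPM in WT, 115 ± 22.5 in HET and 146 ± 25.3 in KO (SD, n = 5 each). The log2 fold change was 0.30 in KO vs WT (95% interval −0.08 to 0.68, adjusted p = 0.363), −0.04 in HET vs WT (−0.42 to 0.34, adjusted p = 1.0) and 0.34 in KO vs HET (−0.04 to 0.72, adjusted p = 0.368). For Notch1 these differences were within the spread between columns.

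Notch2, a receptor broadly made in epidermis and dermis, stood at 83.8, 98.6, 88.5, 142 and 89.3 CPM in the WT replicates. In HET it was 94.45, 97.7, 86.7, 106 and 101 CPM. In KO it was 125, 145, 109, 118 and 90.0 CPM. KO replicates 1 to 4 lay above all 5 HET columns and above all WT columns but replicate 4, whereas KO replicate 5 fell among them. The log2 fold change of Notch2 was 0.23 in KO vs WT (−0.07 to 0.52, adjusted p = 0.381), −0.05 in HET vs WT (−0.35 to 0.25, adjusted p = 1.0) and 0.27 in KO vs HET (−0.03 to 0.57, adjusted p = 0.351). It was the only member to pass in KO vs WT when a column was left out: without WT replicate 4 the value was 0.38 with an adjusted p of 0.07. In that fit 1660 of 17039 genes passed the adjusted p, against 197 of 17094 in the main fit.

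Notch3 is the receptor of vascular mural cells and is also made in suprabasal keratinocytes. Its WT columns read 88.9, 125, 115, 206 and 125 CPM, its HET columns 124, 119, 105, 115 and 123 CPM, and its KO columns 161, 171, 147, 142 and 107 CPM. WT replicate 4 was the highest of all 15 columns and WT replicate 1 the lowest, so WT (132 ± 44.0 CPM) spread wider than HET (117 ± 7.76) and KO (145 ± 24.4). KO replicates 1 to 4 again lay above all HET columns. The log2 fold change of Notch3 was 0.14 in KO vs WT (−0.23 to 0.51, adjusted p = 0.67), −0.17 in HET vs WT (−0.54 to 0.20, adjusted p = 1.0) and 0.32 in KO vs HET (−0.05 to 0.69, adjusted p = 0.385).

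WT replicate 4 decided the size of several of these values. It was the highest WT column for 9 of 10 members, all but Hes5, and stood at 1.82 times the mean of the other WT columns for Notch3, 1.64 times for Hes1, 1.58 for Notch2, 1.51 for Notch1 and 1.4 for Jag1, with the rest at 1.06 to 1.2. Without it, the KO vs WT log2 fold change was 0.44 for Notch1 (adjusted p = 0.142) and 0.36 for Notch3 (adjusted p = 0.112). Other columns moved the receptors too: without WT replicate 1 the value was 0.18 for Notch1 (adjusted p = 0.591) and 0.03 for Notch3 (adjusted p = 0.936), without KO replicate 2 it was 0.13 for Notch2 (adjusted p = 0.62) and 0.07 for Notch3 (adjusted p = 0.853), and without KO replicate 5 it was 0.23 for Notch3 (adjusted p = 0.415). In KO vs HET Notch2 was at 0.18 without KO replicate 2 (adjusted p = 0.56). Of the columns of 1 library, WT replicates 1 and 5 were each the lowest in WT for 4 of 10 members. KO replicates 4 and 5 were the lowest in KO for 3 and 5, and HET replicates 4 and 5 the lowest in HET for 0 and 2. The marker sums of WT replicate 4 were also the highest in WT for suprabasal keratinocytes (71920 CPM), fibroblasts (36660), blood endothelium (476), erythroid cells (5154) and neutrophils (25.5). They were the lowest in WT for basal keratinocytes (6577), hair follicle (320.5), adipocytes (335) and melanocytes (287). The part of these markers in the receptor values was not tested.

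Markers of other cells and of the cells that make the receptors were compared between genotypes, and few passed. The suprabasal sum overlapped between genotypes, at 65160 to 92360 CPM in KO against 50300 to 71920 in WT and 51720 to 68030 in HET. In KO vs WT 6 of 6 of its genes were above 0 (median log2 fold change 0.27), of which 1 passed the adjusted p. The basal list had a median of 0.16 with 6 of 7 genes above 0 and none passing, and the dermal fibroblast list −0.24 with 0 of 7 above 0 and none passing. Mural cell markers, whose sum was 415 to 521.5 CPM in WT, 358 to 512 in HET and 347 to 473 in KO, had a median of −0.14 with 3 of 7 above 0 and none passing. The neutrophil, adipocyte and erythroid lists had the highest medians in KO vs WT. These were 1.53 for neutrophils (6 of 7 tested above 0, 1 passing), 1.49 for adipocytes (6 of 6 above 0, none passing) and 0.55 for erythroid cells (7 of 7 above 0, none passing). The neutrophil list summed to only 13.3 to 92.7 CPM over all columns. It includes S100a8 and S100a9, which the study also reports from keratinocytes or epidermis, so the list is not specific to blood cells. In HET vs WT no marker of any of these lists passed. All of these markers were detected, none being at 0 in all columns. Their part in the values of Notch1, Notch2 and Notch3 was not tested.

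Receptor transcripts are long, and fold changes ran with exon length in these data. Over the 14597 tested genes with a length (85.4%), the Spearman correlation across genes of the log2 fold change with exon length was 0.198 in KO vs WT, 0.02 in HET vs WT and 0.211 in KO vs HET. Genes are not independent replicates, so these are descriptions. In KO vs WT the longest 25% of genes had a median log2 fold change of 0.08 and the shortest 25% had −0.08. Notch1 is longer than 96.9% of these genes, Notch2 than 92.4% and Notch3 than 82.8%, whereas Hes5 is longer than only 6%, Hes1 than 14.6% and Hey1 than 33.6%. Rbpj, at 95.5% by its exon union, had a KO vs WT value near 0.

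The slope of each column's log2 CPM deviations on log2 exon length was highest in KO replicate 1 (0.107) and WT replicate 4 (0.0651) and lowest in WT replicate 1 (−0.0798). After removal of genotype means, the receptor levels had a Pearson r with the slope over the 15 columns of 0.796 for Notch1, 0.744 for Notch3 and 0.663 for Notch2 (Spearman rho 0.689, 0.711 and 0.686). Because the slope was fitted to the deviations of all genes on their length, long genes tend to follow it by construction, so these values are descriptions with no test. Without WT replicate 4 and KO replicate 1, the columns farthest from the median slope, r was 0.646, 0.594 and 0.457 for Notch1, Notch3 and Notch2. Within the 9 columns of 2 libraries r was 0.808, 0.679 and 0.491 in that order, and within the 6 columns of 1 library 0.919, 0.614 and 0.328. Those 6 columns are spread over all genotypes, so with genotype means removed their r rests on few differences. With the slope as a covariate, an alternative chosen after the data were seen, the KO vs WT log2 fold change was 0.10 for Notch1, 0.10 for Notch2 and −0.02 for Notch3. In KO vs HET it was 0.10, 0.13 and 0.10. The slope came from the same counts and ran from −0.013 to 0.107 in KO, −0.0798 to 0.0651 in WT and −0.0599 to 0.0353 in HET. Adjusting for it may therefore also remove part of a genotype difference. The part of length in the receptor values was not tested.

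**Figure D2:**
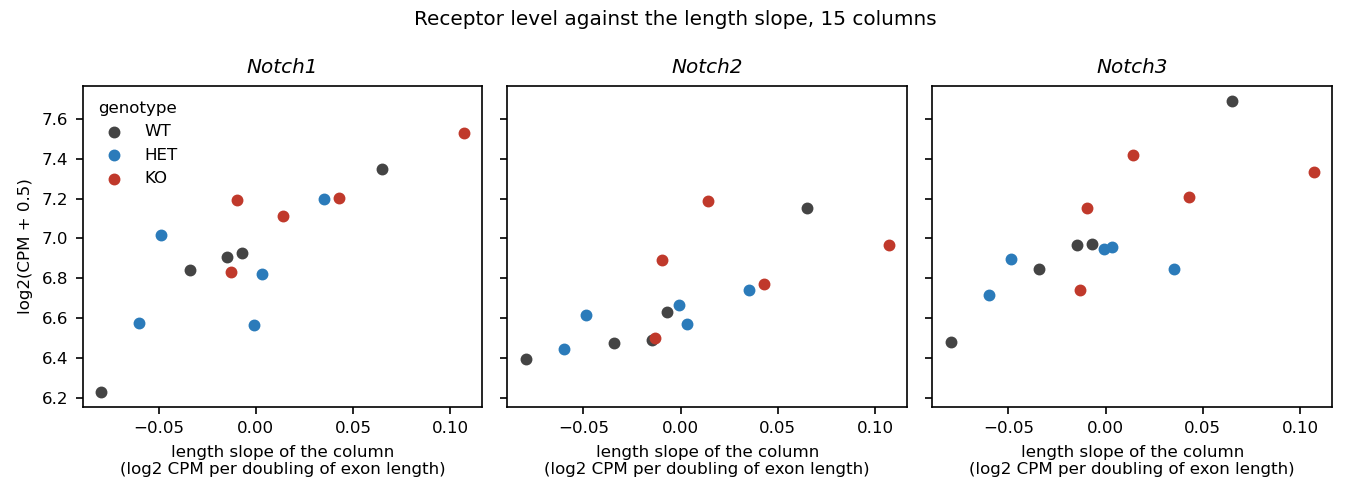
Level of Notch1, Notch2 and Notch3 as log2(CPM + 0.5) against the length slope of the column (log2 CPM per doubling of exon length), 1 point per column, colored by genotype. KO replicate 1 (slope 0.107) and WT replicate 4 (0.0651) lie at the right with high receptor levels, and WT replicate 1 (−0.0798) at the left with the lowest.

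Of the ligands, Jag1 is made in suprabasal keratinocytes, hair follicles and vessels. It measured 50.8, 51.2, 49.5, 71.1 and 51.0 CPM in WT, 48.9, 55.4, 45.1, 52.2 and 45.4 in HET, and 58.1, 58.3, 57.8, 57.6 and 48.2 in KO. Of the WT columns 4 sat within 49.5 to 51.2 CPM and 4 KO columns within 57.6 to 58.3 CPM, with 1 column of each genotype on the other side, so the genotypes overlapped. Its log2 fold change was 0.03 in KO vs WT (−0.18 to 0.25, adjusted p = 0.88), −0.15 in HET vs WT (−0.37 to 0.07, adjusted p = 1.0) and 0.18 in KO vs HET (−0.04 to 0.40, adjusted p = 0.392). Without WT replicate 4 the KO vs WT value was 0.15 (adjusted p = 0.272).

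Jag2, a ligand of basal keratinocytes, was the most abundant of the 3 per kilobase. Its WT columns held 98.2, 117, 117, 123 and 116 CPM, its HET columns 106, 128, 91.0, 124 and 99.4, and its KO columns 137, 121, 134, 103 and 117. KO replicates 1 and 3 exceeded all WT and HET columns, and the others lay among them. Its log2 fold change was 0.10 in KO vs WT (−0.12 to 0.32, adjusted p = 0.616), −0.06 in HET vs WT (−0.28 to 0.16, adjusted p = 1.0) and 0.16 in KO vs HET (−0.06 to 0.38, adjusted p = 0.471).

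Dll1, a Delta ligand known from basal keratinocytes, was the scarcest of the 3 member ligands. It stood at 15.1, 17.4, 16.1, 18.6 and 13.35 CPM in WT, 16.6, 18.3, 12.0, 15.5 and 14.3 in HET, and 19.05, 17.3, 14.3, 14.1 and 16.3 in KO. The genotypes overlapped almost wholly. The log2 fold change of Dll1 was 0.01 in KO vs WT (−0.25 to 0.28, adjusted p = 0.97), −0.07 in HET vs WT (−0.34 to 0.20) and 0.08 in KO vs HET (−0.19 to 0.35, adjusted p = 0.784).

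Rbpj, the DNA-binding partner shared by all Notch receptors, had the narrowest interval of the members. It measured 28.9, 29.8, 26.7, 32.2 and 25.9 CPM in WT, 30.8, 27.98, 30.8, 32.7 and 29.05 in HET, and 29.6, 32.01, 26.5, 27.75 and 26.2 in KO. Its log2 fold change was −0.01 in KO vs WT (−0.19 to 0.16, adjusted p = 0.941), 0.08 in HET vs WT (−0.10 to 0.25) and −0.09 in KO vs HET (−0.26 to 0.08, adjusted p = 0.609). All 3 intervals of Rbpj lay between −0.26 and 0.25.

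**Figure D3:**
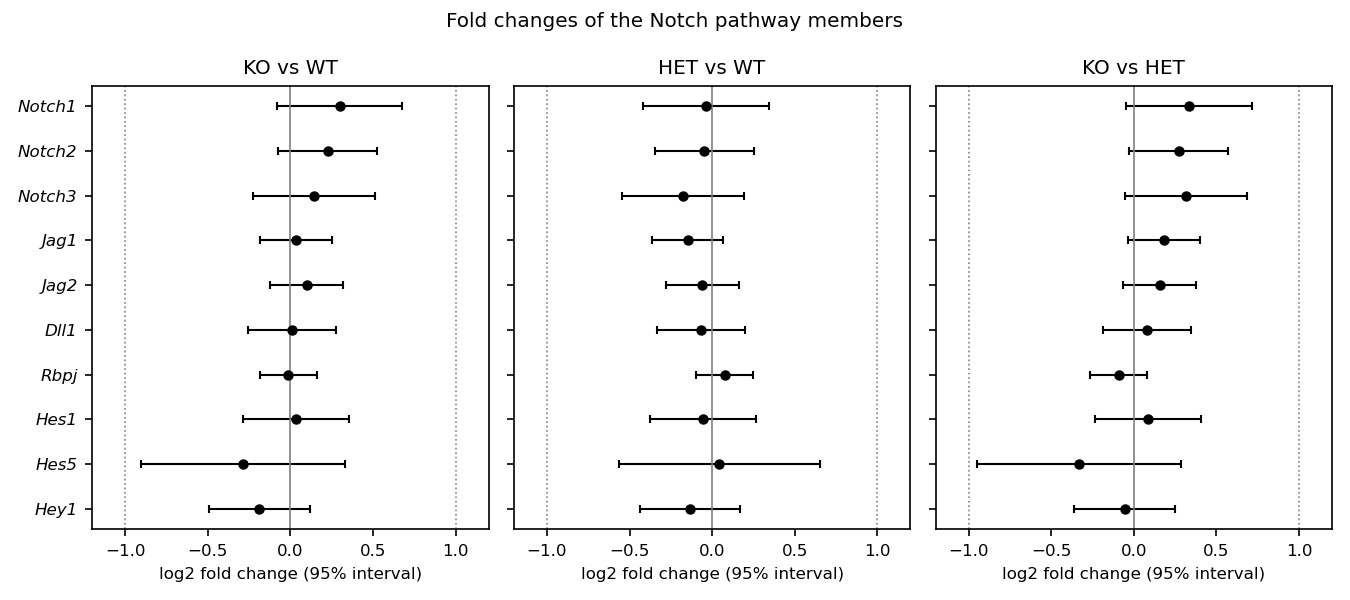
Log2 fold change of each member with its 95% interval (bars) in KO vs WT, HET vs WT and KO vs HET, 5 columns per genotype; the dotted lines mark the fold limit of 1 on the log2 scale. Every interval spans 0 and none reaches the limit, the widest being that of Hes5.

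Among the targets, Hes1, a repressor that responds to Notch in many tissues including suprabasal epidermis, held 54.4, 56.6, 54.9, 87.5 and 47.5 CPM in WT. It held 50.5, 62.0, 57.4, 61.4 and 58.3 CPM in HET, and 53.2, 70.15, 76.0, 47.9 and 60.3 CPM in KO. WT replicate 4 was the highest column of all, and KO had columns both above and below the HET range. For Hes1 the log2 fold change was 0.03 in KO vs WT (−0.29 to 0.35, adjusted p = 0.925), −0.06 in HET vs WT (−0.38 to 0.27) and 0.09 in KO vs HET (−0.23 to 0.41, adjusted p = 0.806). Without WT replicate 4 the values were 0.21 in KO vs WT (adjusted p = 0.308) and 0.12 in HET vs WT.

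Hes5, a Notch-responsive repressor best known from neural progenitors, was near the lower limit of these data with 16 to 63 counts per column. Its CPM was 1.84, 1.10, 1.11, 1.49 and 1.36 in WT, 1.24, 2.34, 1.36, 1.04 and 1.005 in HET, and 1.41, 0.7745, 0.681, 0.977 and 1.76 in KO. KO replicates 2, 3 and 4 lay below all WT and HET columns, and KO replicates 1 and 5 did not. Fold changes of Hes5 on the log2 scale were −0.29 in KO vs WT (−0.91 to 0.33, adjusted p = 0.598), 0.04 in HET vs WT (−0.56 to 0.65) and −0.33 in KO vs HET (−0.95 to 0.29, adjusted p = 0.598). These were the widest intervals of any member.

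Hey1, a repressor that responds to Notch in endothelium and elsewhere, was tight in WT and spread in KO. It gave 13.25, 12.1, 12.7, 13.3 and 11.9 CPM in WT, 9.83, 13.2, 12.0, 11.45 and 11.1 in HET, and 13.7, 7.30, 12.55, 9.35 and 12.5 in KO. The SD was 0.629 CPM in WT, 1.24 in HET and 2.67 in KO (n = 5 each), and KO replicates 2 and 4 lay below all other columns. For Hey1 the log2 fold change was −0.19 in KO vs WT (−0.49 to 0.12, adjusted p = 0.47), −0.13 in HET vs WT (−0.44 to 0.17) and −0.05 in KO vs HET (−0.36 to 0.25, adjusted p = 0.878).

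Receptors and targets were then compared across the 15 columns after removal of genotype means. The receptors varied together, with r = 0.914 for Notch2 and Notch3, 0.762 for Notch1 and Notch3 and 0.682 for Notch1 and Notch2. Jag1 varied with Notch2 (r = 0.835) and Notch3 (r = 0.809). Without WT replicate 4 these 5 values were 0.819, 0.668, 0.529, 0.636 and 0.542. Hes1 varied with Jag1 at r = 0.616, with Notch2 at 0.568 and with Notch3 at 0.546, but without WT replicate 4 at 0.135, 0.119 and 0.02, so these relations rested on that column. Hes5 and Hey1 had r = 0.526 with each other and −0.27 and −0.317 with Notch2, and without WT replicate 4 these values were 0.521, −0.481 and −0.554. These correlations are descriptions over n = 15 columns that share libraries, depth and the length slope.

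For 6 pairs fixed by cell type or role, p-values came from 100000 permutations within genotype and were adjusted over the 6. None passed 0.1. Hes5 and the summed 13 hair follicle markers had r = 0.618 and rho = 0.575 (permutation p = 0.0329 and 0.0485, adjusted p = 0.127 and 0.145), but r = 0.393 without HET replicates 5 and 2, 0.594 within columns of 2 libraries and 0.424 within columns of 1 library. Jag1 and Jag2 had r = 0.531 and rho = 0.643 (permutation p = 0.0424 and 0.0216, adjusted p = 0.127 and 0.129), 0.558 and 0.127 within columns of 2 libraries and of 1, and 0.705 without WT replicate 4 and KO replicate 5. Notch1 and the 7 basal keratinocyte markers had r = 0.393 and rho = 0.443 (adjusted permutation p = 0.266 and 0.243), 0.248 and 0.705 within, and 0.294 without the farthest pair of columns. Notch1 and its target Hes1 had r = 0.32 and rho = 0.2 (adjusted permutation p = 0.48 and 0.591), 0.293 and −0.524 within, and −0.0493 without WT replicates 1 and 4. Notch3 and the 7 mural cell markers had r = 0.085 and rho = 0.371 (adjusted permutation p = 0.886 and 0.267), 0.0647 and −0.0111 within, and 0.333 without the farthest pair. Hey1 and the 8 endothelial markers had r = 0.0407 and rho = 0.143 (adjusted permutation p = 0.916 and 0.665) and 0.425 without the farthest pair, and the sign differed within columns of 2 libraries (0.712) and of 1 library (−0.809). The 6 columns of 1 library are spread over all genotypes. With genotype means removed, r within them rests on few differences and can lie near either extreme.

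The genes most like 3 members were sought among 13542 genes with a mean of at least 50 counts, by Pearson r of log2(CPM + 0.5) with genotype means removed, n = 15 columns. For Notch1 they were Kmt2b (r = 0.939), Kif26a (0.935) and Tubgcp6 (0.933), for Notch3 Kdm4b (0.952), Aak1 (0.95) and Nfrkb (0.95), and for Hes1 Tmem102 (0.931), Il10ra (0.92) and RP24-16C11.2 (0.918). Without WT replicate 4 the r of these pairs was 0.913 to 0.939 for Notch1, 0.892 to 0.915 for Notch3 and 0.831 to 0.876 for Hes1. The genes were picked for the highest r over columns that include these, so high values are largely set by that choice. The part of the length slope in these pairs was not tested.

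The rest of the pathway was examined in 43 further genes, of which 41 were tested; the ligand Dll3 (0.0948 to 0.443 CPM over all columns) and Hes3 were too low. In KO vs WT, 0 rose and 1 fell by the adjusted p alone, none by the full rule, and 7 were higher and 4 lower at an unadjusted p below 0.05. Over all genes 1.15% passed the adjusted p and 19.3% the unadjusted p, with 1727 higher and 1569 lower of 17094. The median log2 fold change of the 41 was 0.001 with 51.2% above 0. Dtx3, a member of the Deltex family of ubiquitin ligases, fell by 0.50 on the log2 scale (SE 0.126, adjusted p = 0.0981), less than the fold limit. Its WT columns held 41.3, 49.5, 48.02, 55.4 and 38.5 CPM, its HET columns 47.2, 42.7, 42.1, 35.9 and 47.6, and its KO columns 29.4, 34.9, 40.5, 25.5 and 34.75, with 4 of 5 KO columns below all WT columns. The call of Dtx3 sat at the threshold: it was lost in 11 of the 15 fits with 1 column left out, all but those without WT replicate 4, HET replicate 4, KO replicate 3 or KO replicate 5 (adjusted p 0.0494 to 0.225).

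**Figure D4:**
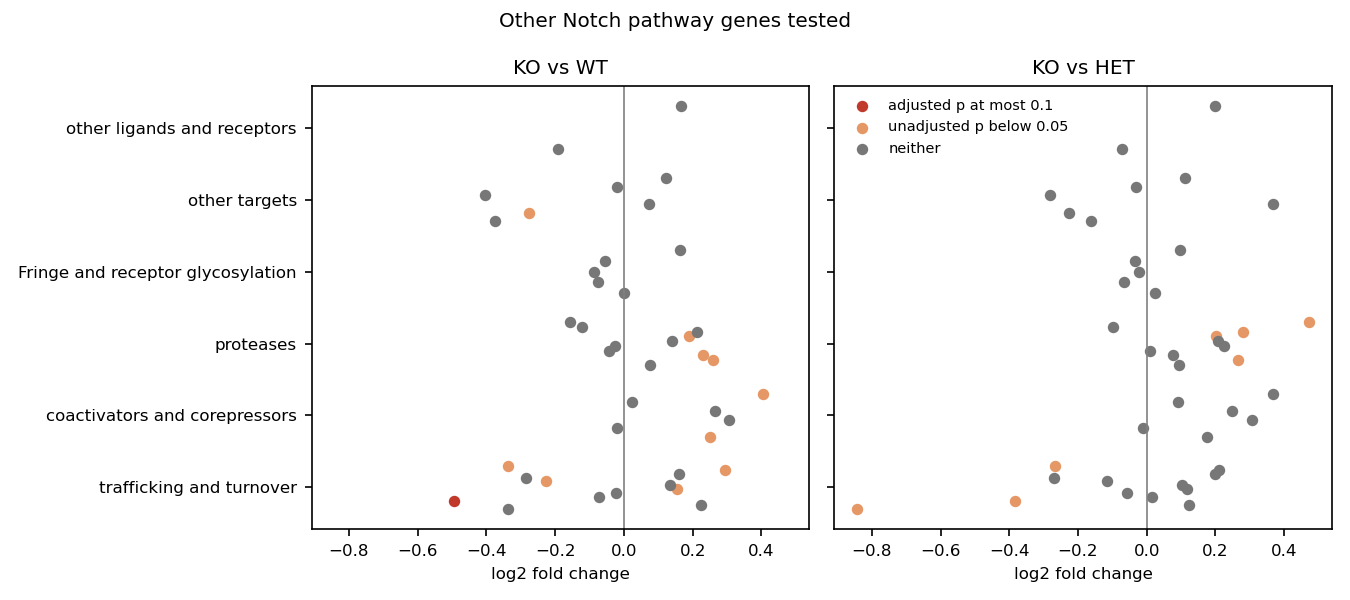
Log2 fold change in KO vs WT and KO vs HET of the 41 other pathway genes tested, 1 point per gene, grouped by role and colored by the edgeR result. A single gene, Dtx3 at −0.50 in KO vs WT, passed an adjusted p of 0.1.

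The other genes named for the smallest p-values did not pass in the main edgeR fit. Numbl, Numb and Adam17 passed with DESeq2 (adjusted p = 0.0739, 0.0958 and 0.0897) and in 3, 5 and 6 of 30 alternatives in all. Mib2 and Krt1 passed in 1 each, that with the 24 libraries as separate samples. These fits passed more genes in KO vs WT: 1451 of 16993 with DESeq2 and 3798 of 16034 with separate libraries. The main fit passed 197 of 17094. Numbl and Numb, the mouse relatives of Drosophila Numb, an inhibitor of Notch, had log2 fold changes of −0.34 (SE 0.107, adjusted p = 0.129) and 0.29 (SE 0.104, adjusted p = 0.156) in KO vs WT, opposite in sign. Adam17, a protease that cuts receptor ectodomains, was at 0.26 (SE 0.092, adjusted p = 0.157), with columns at 68.2, 67.5, 62.2, 74.1 and 71.2 CPM in WT and 85.9, 93.9, 70.2, 91.3 and 69.5 CPM in KO, so that KO replicates 1, 2 and 4 lay above all WT columns. Mib2, a ubiquitin ligase that acts on Notch ligands, was at −0.23 (adjusted p = 0.198). Krt1, a suprabasal keratin, was at 0.32 (adjusted p = 0.216). By exon length Numbl (longer than 85.9% of genes) and Dtx3 (22.5%) were lower in KO, and Adam17 (77.8%) and Numb (43.6%) were higher.

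By role, counts at an unadjusted p below 0.05 are to be read beside the 19.3% of all genes at that level. The 10 protease genes (Adam10, Adam17, Furin and the gamma-secretase subunits) had 0 genes passing and a median log2 fold change of 0.11 in KO vs WT, with Adam17, Ncstn and Aph1a at an unadjusted p below 0.05, each higher. The 6 coactivators and corepressors had 0 passing and a median of 0.26, with Maml1 and Spen at that level, both higher. The 12 trafficking and turnover genes had 1 passing, Dtx3, and a median of −0.05, with Numb and Itch higher and Numbl, Mib2 and Dtx3 lower at an unadjusted p below 0.05. The 5 genes that glycosylate the receptors (the Fringe genes, Pofut1 and Poglut1) had 0 passing and a median of −0.05. The median exceeded that of all genes (−0.01) for the proteases and cofactors and lay below it for the other 2 roles.

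Paralogs of the members and the target Nrarp were measured alongside. Notch4, an endothelial receptor, was at 9.37 to 13.6 CPM in WT and 9.66 to 21.4 in KO (log2 fold change 0.17, adjusted p = 0.692), and Dll4, an endothelial ligand, at 8.11 to 12.1 CPM in WT and 7.04 to 12.1 in KO (−0.19, adjusted p = 0.542). Of the genes listed as targets, Hey2 was at −0.40 (adjusted p = 0.267) and Heyl at −0.02 (adjusted p = 0.963). Nrarp, a feedback inhibitor of the pathway, was at 0.12 (adjusted p = 0.537) and Hes6, which can oppose Hes1, at −0.28 (adjusted p = 0.23). With the members Hes1, Hes5 and Hey1, 3 of 9 tested genes listed as targets were above 0 in KO vs WT and 0 passed. None of the genes named in this paragraph passed the adjusted p. Hes6 was the only one of them at an unadjusted p below 0.05 (edgeR) and 1 of the 4 lower pathway genes at that level.

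In HET vs WT, 0 of the 41 genes passed (edgeR), 13 were above 0, and 1 had an unadjusted p below 0.05: Psenen, a gamma-secretase subunit named here after its values were seen, with 3.64, 2.09, 2.15, 2.47 and 2.12 CPM in WT and 1.92, 1.30, 1.77, 1.30 and 1.68 in HET (log2 fold change −0.63, SE 0.209, unadjusted p = 0.00811, adjusted p = 1.0). Psenen was lower in each HET column than in any WT column, on 20 to 75 counts per column. In KO vs HET, 0 of 41 passed, with Adam17, Ncstn and Psenen of the protease group among those higher and 3 lower (Numbl, Dtx1 and Dtx3, all of the trafficking group) at an unadjusted p below 0.05. Dtx1, at −0.84 in that comparison, held 13.5 CPM in HET replicate 2 against 3.16 to 4.83 in the other HET columns and 2.30 to 4.02 in KO.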

How the data were processed

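The authors deposited raw counts, whole numbers per mouse gene symbol, for 24 poly(A) libraries of E18.5 skin. The submitters' notes name STAR, HTSeq and the build hg19 without a role; versions, the mouse annotation and the use of strand in counting are not given in the sources used here. More than 1 sequencing facility is named in the methods, but the labels tie no library to either.

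Libraries sharing genotype and title number were summed (9 numbers with 2 libraries, 6 with 1), giving 15 columns. Genes were filtered with filterByExpr, scaled by TMM and fitted in edgeR 4.0.16 (R 4.3.3) by robust quasi-likelihood, with all 3 genotypes in 1 fit and Benjamini-Hochberg adjustment over 17094 genes. The script was tested on simulated data. Alternatives used DESeq2 1.42.0, limma-voom (limma 3.58.1), other scalings, filters, covariates and library sets. Exon lengths came from GENCODE (GRCm38) and promoters from RefSeq (GRCm38.p6). Relations used log2(CPM + 0.5). Intervals cover 95%. The members, lists and tests were chosen with earlier results of these data known. Named besides the members were pathway genes with an adjusted p of at most 0.1, the 6 with the smallest KO vs WT p, paralogs and the target Nrarp. Results for some genes of the lists are not reported here.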

Additional observations from a re-analysis of the deposited data

Results flagged for a closer look

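A total of 11 values stood apart within their genotype, meaning that the gap to the nearest column, as a share of the range of the 5 columns, exceeded 0.71. In 69 sets examined chance gives about 1 in 20, or 3.45, though the sets share columns and are not independent. WT replicate 4 was high for Jag1 (share 0.92, 71.1 CPM against 49.5 to 51.2), Hes1 (0.773, 87.5 against 47.5 to 56.6), Notch2 (0.747, 142 against 83.8 to 98.6) and the summed neutrophil markers (0.724, 25.5 CPM).

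KO replicate 5 was low for Jag1 (0.926, 48.2 CPM against 57.6 to 58.3), WT replicate 1 was low for Jag2 (0.714, 98.2 CPM against 116 to 123), and HET replicate 2 was high for Hes5 (0.734, 2.34 CPM against 1.005 to 1.36). Among the marker sums, KO replicate 2 was high for suprabasal keratinocytes (0.77, 92360 CPM), HET replicate 3 for neutrophils (0.732, 46.9 CPM) and adipocytes (0.83, 3707 CPM), and KO replicate 4 for adipocytes (0.792, 4941 CPM).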

How the results depend on the processing

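No member was called by the full rule under any of the 30 alternatives in any comparison. By the adjusted p alone, the count of 0 in KO vs WT ran from 0 to 1 with each column left out. The 1 was Notch2 without WT replicate 4, where 1660 of 17039 genes passed. The count of 0 in KO vs HET became 5 with the 24 libraries as separate samples. These were Notch1, Notch2, Notch3, Jag1 and Jag2 (edgeR adjusted p 0.0443 to 0.0912). That setting counts libraries of 1 number as separate samples. In it 3944 of 16034 genes passed in KO vs HET, against 57 of 17094 in the main fit. Of 299 log2 fold changes per comparison, 272 in KO vs WT, 287 in HET vs WT and 289 in KO vs HET kept direction and side of the threshold.

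The cause of changes in sign was not tested. In KO vs WT the values that changed sign were, with total count scaling, Jag1 −0.021, Dll1 −0.042 and Hes1 −0.015; with the length slope as covariate, Notch3 −0.019, Jag1 −0.044, Dll1 −0.072 and Hes1 −0.045; in series 1 alone (the 9 libraries of one title format), Dll1 −0.052 and Hes1 −0.021; in series 2 alone (the other 15), Rbpj 0.022; and for Dll1, −0.0064 with a mean of at least 50 counts, −0.00131 with 24 libraries and −0.00525 with WT replicate 2 as 2 columns. In HET vs WT Rbpj was −0.0043 in series 1 alone, and in KO vs HET the length slope gave Dll1 −0.0069 and Hes1 −0.0064. With each column left out, the KO vs WT values ran from −0.0014 to 0.15 for Jag1, −0.055 to 0.066 for Dll1, −0.062 to 0.031 for Rbpj and −0.055 to 0.21 for Hes1. The HET vs WT values ran from −0.17 to 0.10 for Notch1, −0.11 to 0.11 for Notch2, −0.29 to 0.045 for Notch3, −0.12 to 0.0050 for Jag2, −0.14 to 0.012 for Dll1, −0.13 to 0.12 for Hes1 and −0.23 to 0.16 for Hes5. The KO vs HET value of Hey1 ran from −0.15 to 0.061. Without the 2 farthest columns, r was 0.393 for Hes5 with the hair follicle sum (permutation p = 0.261) and −0.0493 for Notch1 with Hes1. Dtx3 passed in 14 of 30 alternatives, and its value stayed between −0.59 and −0.42. Hes5 was not tested with a mean of at least 50 counts. No paired analysis was possible because the genotypes share no title numbers. Counts of 16 to 63 per column limit Hes5.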
